A study of Mus musculus with 2 samples.

Results

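Among 21887 RefSeq protein-coding genes, 96 belong to 9 families of glycosyltransferases and palmitoyltransferases, taken by the start of their symbols: 19 Galnt, 5 B3galt, 9 B3gnt, 7 B4galt, 6 St3gal, 8 St6gal, 6 St8sia, 12 Alg and 24 Zdhhc genes. DPPA2 ChIP-seq peaks were assigned to them where the summit, the highest point of a peak, lay within 1000 bp of either end of the gene or inside it. This gave 23 of 7043 peaks in untreated cells and 68 of 16229 after adriamycin. DPPA2 is a DNA-binding protein of pluripotent cells. It was mapped with an anti-Dppa2 antibody in R1/E, a mouse embryonic stem cell line with wild-type p53, kept on gelatin in serum with LIF. The 2 libraries are untreated cells and cells given adriamycin (doxorubicin, which traps topoisomerase on DNA) for 8 h, a treatment labelled as induction of apoptosis. Line, antibody and batch entry are the same for both. In the treated sample the genotype field holds the agent, and the tissue is labelled as embryonic tissue although the cells are a line. Peak lists hold no expression values, so the cell type could not be checked against its markers, and whether a gene is transcribed cannot be read from them. In a culture of many cells, more cells with DPPA2 at a site and more DPPA2 per cell cannot be told apart.

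The families were chosen by name after earlier results of these peak lists were known, and the peaks themselves decide which genes are described. All counts and folds are therefore descriptions, with no test. With 1 library per group there is no replicate error, and a gene absent from a list is a gene without a call, not one shown to lack DPPA2. Without an input profile used here, a peak does not by itself show DPPA2 binding.

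Glycosyltransferases build sugar chains on proteins and lipids by moving single sugars from activated donors. Galnt enzymes begin mucin-type O-glycans by adding N-acetylgalactosamine to serine or threonine, B3galt, B4galt and B3gnt enzymes extend chains with galactose or N-acetylglucosamine, and St3gal, St6gal and St8sia enzymes cap them with sialic acid. Alg enzymes assemble the dolichol-linked precursor of N-glycans at the endoplasmic reticulum, so this family lies outside the Golgi that gives the group its name. Zdhhc enzymes attach palmitate to cysteines, at the Golgi and at other membranes. In embryonic stem cells such glycans include cell-surface antigens used to follow pluripotency.

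Promoter sequences show where the summits fell and how CpG content varied between members. RefSeq promoters of GRCm38.p6, the build also called mm10, were matched to 74 of the 96 genes, each running from 250 bases before the gene's annotated start to 50 after it. Printed below are 7, in the direction of the gene, with CpG dinucleotides in capitals. Galnt9, Zdhhc21, Zdhhc17, St3gal4 and St8sia1 are the members with a summit in the window of the annotated start nearest the outer end of the gene. Alg9 and Zdhhc23 were added after their values were seen, as the gene with the highest gene-end fold and the promoter with the most CpG among members with a peak near the start.
Galnt9, chr5:110544105-110544404, plus strand: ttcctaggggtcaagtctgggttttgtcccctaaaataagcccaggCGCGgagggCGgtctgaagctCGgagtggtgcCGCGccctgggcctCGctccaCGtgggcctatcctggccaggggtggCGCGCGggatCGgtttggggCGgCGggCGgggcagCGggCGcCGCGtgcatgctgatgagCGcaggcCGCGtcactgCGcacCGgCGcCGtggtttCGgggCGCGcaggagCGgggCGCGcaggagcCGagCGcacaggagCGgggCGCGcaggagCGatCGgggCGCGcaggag
Zdhhc21, chr4:82859624-82859923, minus strand: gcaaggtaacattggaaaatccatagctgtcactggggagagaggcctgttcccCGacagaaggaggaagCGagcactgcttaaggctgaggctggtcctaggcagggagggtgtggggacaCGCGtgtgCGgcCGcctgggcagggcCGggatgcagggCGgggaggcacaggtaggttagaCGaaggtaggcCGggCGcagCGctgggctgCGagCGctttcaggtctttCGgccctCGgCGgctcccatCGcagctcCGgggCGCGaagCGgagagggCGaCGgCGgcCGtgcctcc
Zdhhc17, chr10:111010017-111010316, minus strand: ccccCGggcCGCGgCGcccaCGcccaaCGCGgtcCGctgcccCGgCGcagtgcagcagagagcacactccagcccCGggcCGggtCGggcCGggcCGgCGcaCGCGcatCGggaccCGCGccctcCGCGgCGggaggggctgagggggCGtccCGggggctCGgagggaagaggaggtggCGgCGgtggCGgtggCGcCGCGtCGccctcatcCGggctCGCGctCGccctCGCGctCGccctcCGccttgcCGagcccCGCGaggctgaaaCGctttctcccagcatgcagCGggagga
St3gal4, chr9:35116815-35117114, minus strand: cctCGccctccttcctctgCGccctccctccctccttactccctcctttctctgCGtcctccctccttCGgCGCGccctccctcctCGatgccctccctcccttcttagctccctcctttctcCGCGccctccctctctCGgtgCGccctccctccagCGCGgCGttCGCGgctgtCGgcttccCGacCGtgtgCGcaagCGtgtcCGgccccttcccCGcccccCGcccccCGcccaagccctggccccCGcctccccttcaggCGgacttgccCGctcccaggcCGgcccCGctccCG
St8sia1, chr6:142964403-142964702, minus strand: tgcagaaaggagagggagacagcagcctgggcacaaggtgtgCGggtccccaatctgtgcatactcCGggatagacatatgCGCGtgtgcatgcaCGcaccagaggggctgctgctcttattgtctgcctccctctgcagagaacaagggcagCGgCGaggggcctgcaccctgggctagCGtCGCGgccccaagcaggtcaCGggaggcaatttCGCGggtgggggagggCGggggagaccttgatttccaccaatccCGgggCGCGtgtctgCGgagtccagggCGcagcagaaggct
Alg9, chr9:50774975-50775274, plus strand: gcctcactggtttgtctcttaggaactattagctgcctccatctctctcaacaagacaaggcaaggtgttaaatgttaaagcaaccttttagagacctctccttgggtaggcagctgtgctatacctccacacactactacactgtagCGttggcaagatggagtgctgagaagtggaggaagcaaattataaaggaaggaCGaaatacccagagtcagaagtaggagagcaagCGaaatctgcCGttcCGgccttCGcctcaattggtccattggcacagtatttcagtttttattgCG
Zdhhc23, chr16:43979760-43980059, minus strand: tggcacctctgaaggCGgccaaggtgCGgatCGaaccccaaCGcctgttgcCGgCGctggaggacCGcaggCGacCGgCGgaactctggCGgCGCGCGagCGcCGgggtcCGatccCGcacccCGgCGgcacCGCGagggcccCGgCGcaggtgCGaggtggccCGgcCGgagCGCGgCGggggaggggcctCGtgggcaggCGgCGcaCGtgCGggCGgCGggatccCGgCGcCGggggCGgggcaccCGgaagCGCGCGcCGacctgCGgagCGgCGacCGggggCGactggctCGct
The Galnt9 window held 41 CpG, Zdhhc21 26, Zdhhc17 47, St3gal4 31, St8sia1 19, Alg9 7 and Zdhhc23 52. The Galnt9 summit lay 2 bases before the annotated start in the untreated library and 22 bases before it after adriamycin. The Zdhhc21 summit lay 90 bases before its start in the untreated library. After adriamycin the Zdhhc17 summit lay 86 bases before, the St3gal4 summit 89 bases before and the St8sia1 summit 3 bases after the start. The Alg9 peak reached only the last 8 bases of its window and the Zdhhc23 peak 62 bases of its own, so most of these 2 windows lies outside the peaks.

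Gene-end peaks were found at 13 of the 96 genes in the untreated list (13.5%, exact binomial interval 7.41 to 22.04%) and at 32 in the adriamycin list (33.3%, 24.04 to 43.7%). Among all protein-coding genes the shares were 5.78% and 16.0%. Both lists called 12 of the 96 (12.5%), against 4.51% of all genes. Calls after adriamycin without an untreated call were made at 20 genes (20.8%), against 11.5%, and the reverse at 1 gene (1.04%), against 1.27%. Another 14 genes had peaks only further inside, and 49 had none in either list. Taking either list, 33 of the 96 (34.4%) had a gene-end peak and 47 (49.0%) one at an end or inside. Among all genes these shares were 17.3% and 31.9%. Each of the 19 genes with a peak at an end or inside in the untreated list also had one in the adriamycin list, where 47 genes did. Over all genes 13.2% and 30.2% had such a peak, and 87.5% of the former were among the latter. Counts moved with the threshold and with the length of the lists. With a q of at most 1e-05 the gene-end counts were 6 and 17, and with a fold of at least 5 they were 7 and 21. With the adriamycin list kept to its strongest peaks by q, as many as the untreated list holds, they were 13 and 16. Shares of all genes under these limits are not given here, so these counts cannot be set against them. Nothing about the families is read from any of the shares or counts above, since the choice of the group used this contrast.

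**Figure D1:**
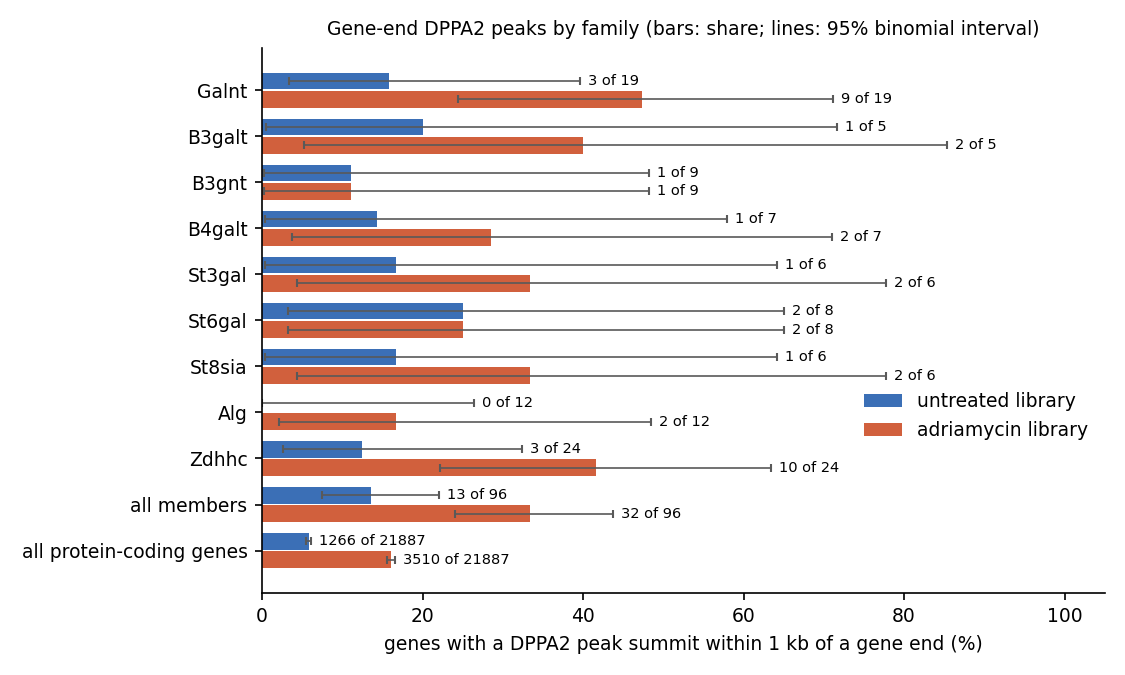
Share of genes (%) with a DPPA2 peak summit within 1 kb of a gene end, per family, for the untreated and the adriamycin library, with exact 95% binomial intervals as lines and counts as labels. The adriamycin share exceeds the untreated one in 7 of the 9 families, and equals it for B3gnt (1 of 9) and St6gal (2 of 8).

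Counts of called members are given by family, and no difference between families is read from them. In the adriamycin list gene-end peaks lay at 9 of 19 Galnt, 10 of 24 Zdhhc and 2 of 5 B3galt genes. They lay at 2 of 7 B4galt, 2 of 6 St3gal, 2 of 8 St6gal, 2 of 6 St8sia, 2 of 12 Alg and 1 of 9 B3gnt genes. Untreated, Galnt and Zdhhc had 3 each, St6gal 2, Alg 0 and every other family 1. Exact binomial intervals of the family shares all overlapped within each list. After adriamycin they were 24.4 to 71.1% for Galnt and 22.1 to 63.4% for Zdhhc, against 2.09 to 48.4% for Alg and 0.281 to 48.2% for B3gnt. The share of all genes, 16.0%, lay below the Galnt and Zdhhc intervals and inside those of the other families. Since the group was chosen with this contrast known, nothing is read from that. The B3gnt genes, median length 7.06 kb, had no peak apart from B3gnt2. The median length was 14.2 kb for Alg, 25.9 kb for Zdhhc and 81.5 kb for Galnt genes. Over all protein-coding genes the gene-end share in the adriamycin list grew with gene length, from 8.92% up to 10 kb through 14.9% (10 to 30 kb) and 22.6% (30 to 100 kb) to 28.6% above 100 kb. Among the 96 it was 2 of 16 (12.5%), 4 of 28 (14.3%), 18 of 35 (51.4%) and 8 of 17 (47.1%) in the same ranges. The part of gene length in the counts was not tested.

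Within the 1000 bp window most summits lay inside the gene. All 13 untreated summits and 29 of 34 adriamycin summits were inside, at a median of 364 bp and 298 bp from the end. Where the promoter table gave the strand, the peak lay within 1000 bp of the outer end on the start side in 8 of 8 untreated and 26 of 26 adriamycin cases. Over all genes 86.2% and 87.6% of cases with a known strand were on that side. Measured from that outer end, the median summit lay 338 bp and 221.5 bp downstream, against 277 bp and 244 bp over all genes. Annotated starts can lie elsewhere, so these are not distances from them. The untreated Galnt9 summit was 321 bp inside the outer end but 2 bp before its nearest annotated start. The 5 summits outside a gene were all called after adriamycin, at Galnt14 (76 bp beyond the gene), Zdhhc17 (86 bp), St3gal4 (89 bp), Galnt17 (297 bp) and Galnt15 (585 bp). The widest distances kept were 865 bp at Galnt7 and 830 bp at B3gnt2. The nearest summits beyond the window and outside a gene were at Zdhhc4 (1324 bp, untreated) and Galnt12 (1367 bp, adriamycin), and these were not counted.

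**Figure D2:**
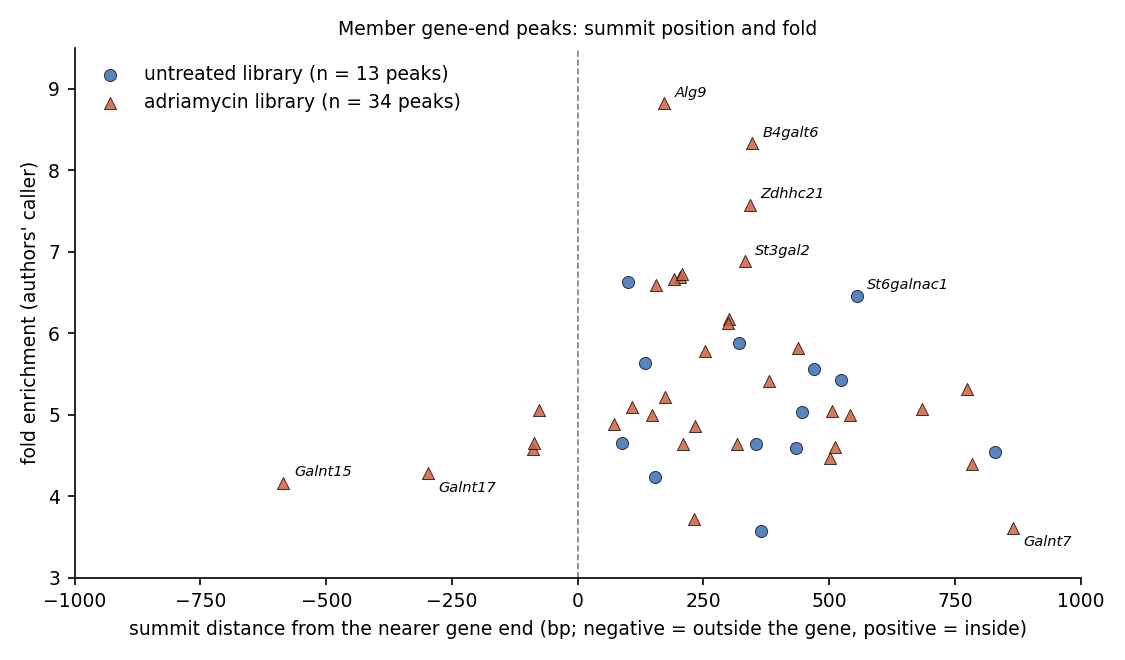
Summit distance from the nearer gene end in bp (negative outside, positive inside the gene) against the authors' fold enrichment, for the 13 untreated and 34 adriamycin gene-end peaks. Most points lie within 500 bp of the end, 10 of 13 and 25 of 34, all but 5 are on the inner side, and the highest fold is at Alg9.

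Strength is given as the authors' fold enrichment, the ratio of summit to local background within 1 library, and as the number of fragments stacked at the summit, recovered from fold and p-value, with a 95% Poisson interval for counting error only. Folds of the 2 libraries are not on a common scale, and a difference between them shows no change. The genes had moderate peaks. In the untreated list 0 of 23 were in the strongest 10% by fold and 14 were in the weaker 50%, and after adriamycin 4 and 39 of 68. The 4 lay in St6galnac5, Alg9, B4galt6 and Galntl6. Median fold at gene ends was 5.04 and 5.06, against 4.69 and 4.79 for all gene-end peaks. Inside genes it was 4.46 and 4.59, against 4.96 and 4.90 for all peaks inside genes. No peak of these genes had a local background of 5 or more times the genome-wide value, which 2.60% of untreated and 1.62% of adriamycin peaks had.

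Gene-end peaks in both lists were carried by 3 Galnt genes. Galnt9 (chromosome 5, 110544032 to 110621383) had 17 fragments (9.90 to 27.2) and a fold of 5.88 in its untreated peak, 110544294 to 110544495. After adriamycin the peak spanned 110544172 to 110544642 with a fold of 6.18 and 20 fragments (12.2 to 30.9), and the summits were 20 bp apart, both inside the CpG-rich promoter printed above. Galnt3, whose enzyme glycosylates the hormone FGF23 (chromosome 2, 66082766 to 66125056), had peaks at 66124426 to 66124636 and 66124123 to 66124980. Their folds were 5.43 and 5.00, with 13 fragments (6.92 to 22.2) in each library and summits 19 bp apart. Galnt13 (chromosome 2, 54436211 to 55118309), whose enzyme is known from neural tissue, had a fold of 5.04 and 13 fragments untreated, at 54436308 to 54436830. After adriamycin it had 2 peaks within 1000 bp of its start, with folds of 4.86 and 5.07 and 13 and 14 fragments. The one at 54436192 to 54436604 overlapped the untreated peak, and the one at 54436861 to 54437063 did not. At these 3 genes the fragment numbers of the 2 libraries lay within each other's counting intervals.

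At 6 more Galnt genes an end was called after adriamycin alone. Galnt2, a broadly acting initiator of O-glycans (chromosome 8, 124231394 to 124345722), had the strongest of these, at 124231429 to 124231886, with a fold of 6.69 and 22 fragments (13.8 to 33.3). Galnt1 (chromosome 18, 24205321 to 24286816) had a fold of 5.31 with 16 fragments (9.15 to 25.98) at 24205528 to 24206392, 773 bp inside. No untreated summit lay closer than 123855 bp to its ends. Galnt14 (chromosome 17, 73493207 to 73712138) had a fold of 5.06 and 16 fragments at 73712080 to 73712299, and untreated summits came no closer than 373083 bp. Galnt7, Galnt17 and Galnt15 had lower folds, 4.46, 4.29 and 4.17, and Galnt7 had a weaker gene-end peak beside the first with a fold of 3.61. Both gene-end peaks of Galnt7 also lie over the noncoding gene AW046200, so these 2 cannot be assigned to Galnt7 alone. A further Galnt7 peak, 21645 bp inside the gene, had a fold of 5.19. The ends of the other 10 carried none in either library: Galnt4, Galnt5, Galnt6, Galnt10, Galnt11, Galnt12, Galnt16, Galnt18, Galntl5 and Galntl6, of which Galnt10, Galnt12 and Galntl6 had peaks inside.

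Of the galactose and N-acetylglucosamine transferases, B3galt1, B3gnt2 and B4galt6 were called in both lists. B4galt6, which encodes a lactosylceramide synthase (chromosome 18, 20684599 to 20746404), had 18 fragments (10.7 to 28.4) at 20745762 to 20746243 untreated and 27 (17.8 to 39.3) at 20745596 to 20746346 after adriamycin. Its folds were 5.56 and 8.33. Its adriamycin peak was in the strongest 6.91% of that list, and the 2 counting intervals overlapped. B3galt1 (chromosome 2, 67565689 to 68122882) had 13 fragments (6.92 to 22.2) at 67565766 to 67566183 and 16 (9.15 to 25.98) at 67565606 to 67566067, with folds of 4.64 and 6.59. Its enzyme adds galactose to N-acetylglucosamine. B3gnt2, the main enzyme of poly-N-acetyllactosamine chains (chromosome 11, 22834739 to 22860336), had 14 (7.65 to 23.5) at 22859239 to 22859664 and 12 (6.20 to 20.96) at 22859435 to 22859720, with folds of 4.55 and 4.39. Its summits were 830 and 784 bp inside the outer gene end but 229 and 183 bp from an annotated start. B4galt5, the partner lactosylceramide synthase gene (chromosome 2, 167298444 to 167349178), was called after adriamycin only, at 167348675 to 167349125 with 16 fragments (9.15 to 25.98) and a fold of 5.41. Further in, 2669 bp from its far end, a weaker peak had a fold of 4.02. B3galt6, whose enzyme builds the linker of glycosaminoglycans, had a fold of 4.64 at 210 bp from its start, and that summit was also within 1000 bp of an end of Sdf4. No peak was found at B3galt2, B3galt4, B3galt5, B4galt2, B4galt3, B4galt4 or B4galt7, nor at the other 8 B3gnt genes.

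Sialyltransferase genes of all 3 linkage families were called in both lists. St6galnac3 (chromosome 3, 153198274 to 153725133), which sialylates N-acetylgalactosamine on glycolipids, had 19 fragments (11.4 to 29.7) in each library and folds of 6.62 and 6.67. The peaks were at 153724864 to 153725174 and 153724804 to 153725151, with summits 99 and 192 bp inside its start. St3gal2 (chromosome 8, 110919743 to 110974058) had 13 fragments (6.92 to 22.2) at 110920093 to 110920292 untreated with a fold of 3.57, and 22 (13.8 to 33.3) at 110919944 to 110920273 after adriamycin with a fold of 6.89. St8sia5, a ganglioside sialyltransferase gene (chromosome 18, 77185847 to 77255450), had the higher values untreated. It had 11 fragments (5.49 to 19.7) and a fold of 4.65 at 77185883 to 77186191, and 8 (3.45 to 15.8) and 3.72 at 77185939 to 77186138 after adriamycin. The St8sia5 summits were within 1000 bp of an end of the noncoding gene Gm7276. At each of these 3 genes the counting intervals overlapped.

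St6galnac1 (chromosome 11, 116765025 to 116775507), which makes the sialyl-Tn antigen, was the gene called at an end in the untreated list and not after adriamycin. Its peak at 116774596 to 116775146 had a fold of 6.46 and 22 fragments (13.8 to 33.3), 555 bp from the higher-coordinate end. A second peak inside the gene was called in both lists, with summits 1282 and 1312 bp from the lower-coordinate end, just beyond the window. It had 21 fragments (13.00 to 32.1) untreated and 13 (6.92 to 22.2) after adriamycin, and folds of 4.35 and 3.20. Local background reached 3.40 and 3.29 times the genome-wide value, the highest among the peaks of these genes in each list. Called after adriamycin only were St6gal2 (chromosome 17, 55445118 to 55514581), with a fold of 5.04 and 11 fragments (5.49 to 19.7) at 55445442 to 55445799, St8sia2, a polysialic acid synthase gene (4.61), and St3gal4 (4.58). St3gal1, St3gal5, St6gal1, St6galnac2, St8sia3, St8sia4 and St8sia6 had no peak.

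The Alg family had no peak in the untreated list. After adriamycin Alg9, a mannosyltransferase gene (chromosome 9, 50775225 to 50843639), had the highest gene-end fold of the 96 genes, 8.82, with 26 fragments (16.98 to 38.1) at 50775267 to 50775861 and its summit 172 bp inside the start. Untreated summits came no closer than 214046 bp to Alg9. The peak also lies in the noncoding gene Gm38476. Alg13 (chromosome X, 144317966 to 144374450), whose product works with ALG14 in adding the second N-acetylglucosamine of the precursor, had a fold of 5.09 and 10 fragments (4.80 to 18.4) at 144317742 to 144318226, 108 bp inside its start. Alg14 had 1 internal peak, with a fold of 3.94 and 9 fragments (4.12 to 17.1). The other 9 (Alg1, Alg2, Alg3, Alg5, Alg6, Alg8, Alg10b, Alg11 and Alg12) had no peak.

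Zdhhc genes had 3 shared gene ends. Zdhhc21 (chromosome 4, 82798738 to 82859897) had 15 fragments (8.40 to 24.7) and a fold of 5.63 at 82859542 to 82859946 untreated, and 19 (11.4 to 29.7) and 7.58 at 82859245 to 82859742 after adriamycin. The summits were 209 bp apart. Zdhhc18, a Golgi enzyme that acts on RAS proteins (chromosome 4, 133604554 to 133633490), had 14 (7.65 to 23.5) at 133633307 to 133633506 and 22 (13.8 to 33.3) at 133633139 to 133633585, with folds of 4.24 and 6.73. Zdhhc2, which palmitoylates the synaptic scaffold PSD-95 (chromosome 8, 40423485 to 40489592), had 15 (8.40 to 24.7) at 40423579 to 40424210 and 21 (13.00 to 32.1) at 40423356 to 40424303, with folds of 4.60 and 5.82. Its summits were 4 bp apart. All 3 had the higher fragment number after adriamycin, each with overlapping intervals.

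The other 7 Zdhhc genes with a gene-end peak were called after adriamycin only. Zdhhc23 (chromosome 16, 43965033 to 43979820) had a fold of 6.13 and 18 fragments (10.7 to 28.4) at 43979317 to 43979821, and its summit was also within 1000 bp of an end of Gramd1c. Zdhhc25 (chromosome 15, 88600302 to 88601669), a gene of 1368 bp, had a fold of 5.78 and 19 fragments (11.4 to 29.7) at 88600422 to 88600956. Its promoter held only 4 CpG, the fewest among the members called at a start. Zdhhc1 (chromosome 8, 105472419 to 105497062) had a fold of 5.21 and 16 fragments (9.15 to 25.98) at 105496699 to 105497074. Zdhhc13, Zdhhc3, Zdhhc17 (known as a huntingtin-interacting palmitoyltransferase gene) and Zdhhc14 had folds of 5.00, 4.89, 4.65 and 4.64. The Zdhhc3 summit, 73 bp inside the start of this gene for a Golgi palmitoyltransferase, was also within 1000 bp of an end of Exosc7, and that of Zdhhc14 within 1000 bp of an end of Gm52310. With B3galt6 and Zdhhc23, 4 of the 34 adriamycin gene-end peaks had such a coding neighbour, and 7 lay within 1000 bp of an end of a noncoding gene, among them those of Alg13 (Gm33235), Zdhhc23 (Gm46552) and St3gal4 (4930581F22Rik). Zdhhc8, Zdhhc15 and Zdhhc19 had internal peaks alone, and Zdhhc4, Zdhhc5, Zdhhc6, Zdhhc7, Zdhhc9, Zdhhc11, Zdhhc12, Zdhhc16, Zdhhc20, Zdhhc22 and Zdhhc24 had none.

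Inside genes, beyond 1000 bp from an end, the group had 10 untreated and 34 adriamycin peaks. These were 0.124 and 0.422 per 100 kb of gene, against 0.216 and 0.567 over all protein-coding genes. Galntl6, the longest member (chromosome 8, 57772489 to 58912531), held 2 untreated and 7 adriamycin peaks and had none at its ends. Both untreated peaks overlapped adriamycin peaks: the pair at 58115935 to 58116168 and 58115821 to 58116207 had 12 (6.20 to 20.96) and 19 (11.4 to 29.7) fragments with folds of 5.24 and 8.26, and the pair near 58389382 had 15 (8.40 to 24.7) and 19 with folds of 6.20 and 7.14. All 7 lay in the stretch from 440996 to 926682 bp downstream of the start. Galnt18, of 308.4 kb, had no peak, the longest member without one.

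Shared sites inside genes also lay in B3galt1, 374291 bp downstream of its start by the untreated summit (15 fragments in each library, folds of 6.40 and 6.06), and in St6galnac3 (10 and 14 fragments, folds of 4.17 and 6.70). Zdhhc23 had 12 and 13 fragments with folds of 3.89 and 3.93. The neighbouring genes St6galnac4 and St6galnac6 had 17 and 23 fragments (folds 4.57 and 5.91) and 13 and 12 (4.17 and 4.14). Beside its shared site B3galt1 had an adriamycin peak that was not shared, at 67939109 to 67939353, with a fold of 6.82 and 17 fragments. St6galnac3 also had an internal adriamycin peak that was not shared, with a fold of 3.33 and 6 fragments. The strongest peak at any of the 96 genes lay in St6galnac5, a brain ganglioside sialyltransferase gene. It was at chromosome 3, 152979394 to 152979784, 2634 bp from the higher-coordinate end, with a fold of 9.95 and 39 fragments (27.7 to 53.3), called after adriamycin only, and it also lies in Gm46830. A weaker adriamycin peak in the gene had a fold of 5.51. St8sia1, the GD3 synthase gene, had 2 weak adriamycin peaks inside it, with folds of 3.72 and 3.57. The latter had its summit 3 bp from an annotated start of the gene, 25079 bp inside the outer end. Galnt2 had 3 adriamycin peaks inside with folds of 4.01 to 4.74. Its single untreated one did not overlap any of them. St3gal3 held 2 adriamycin peaks, with folds of 4.32 and 5.17. Single internal adriamycin peaks lay in B4galt1, Galnt7, Galnt10, Galnt12, St3gal6, Zdhhc8, Zdhhc15 and Zdhhc19, with folds from 3.11 at Zdhhc8 to 5.34 at St3gal6, and a single untreated peak that was not shared lay in St8sia2 (4.64).

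**Figure D3:**
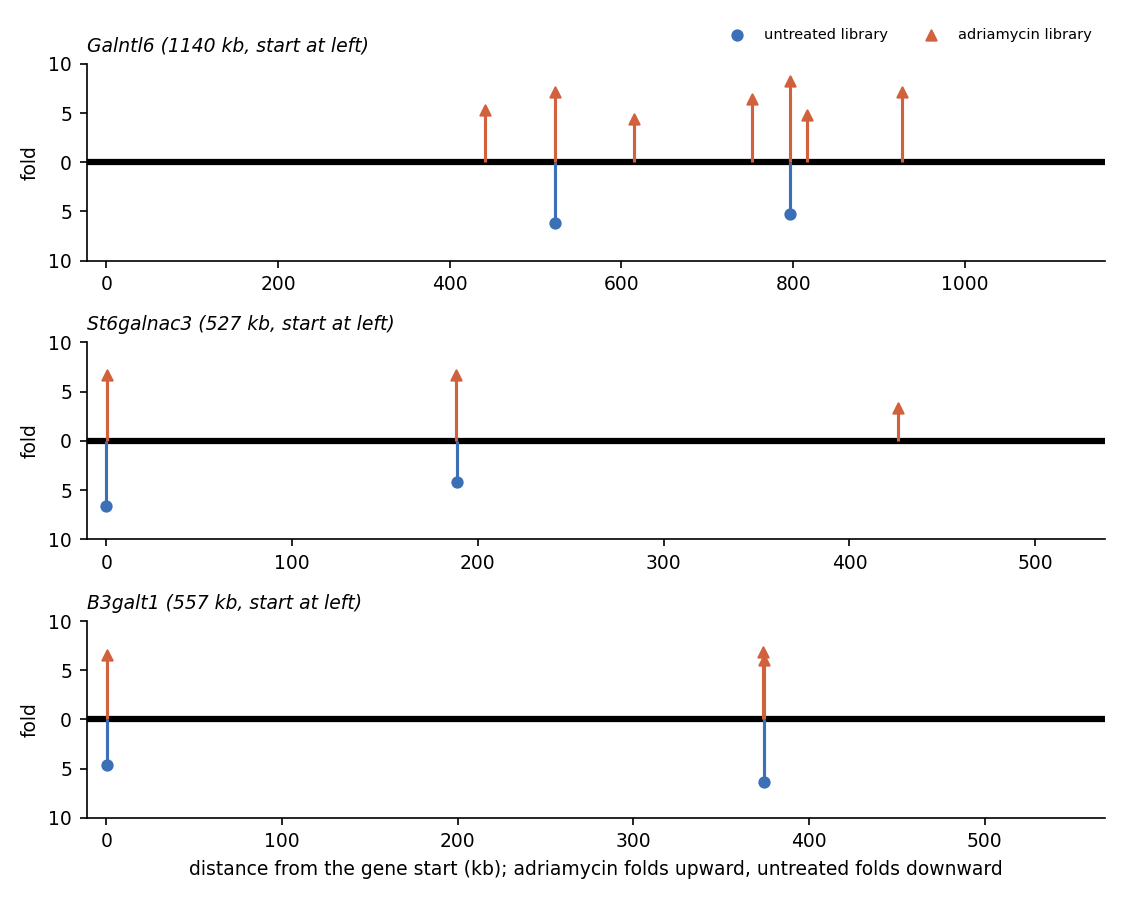
Peaks along Galntl6, St6galnac3 and B3galt1, drawn by summit distance from the gene start in kb, with the authors' fold upward for the adriamycin and downward for the untreated library. Galntl6 has 7 adriamycin and 2 untreated peaks and none near its start, while St6galnac3 and B3galt1 have peaks of both libraries at the start and deep inside.

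Of the 23 untreated peaks, 20 (87.0%, 66.4 to 97.2%) overlapped an adriamycin peak, and of the 68 adriamycin peaks 20 (29.4%, 19.0 to 41.7%) overlapped an untreated one. Over all peaks the shares were 79.7% and 34.4%. The 20 adriamycin peaks with a counterpart had a median fold of 6.12 and 17.5 fragments, against a median of 5.00 and 13 over all 68. Over the whole adriamycin list the same medians were 6.22 and 17 for shared peaks, against 5.10 and 14 for all. At the shared sites the fold was higher in the adriamycin list at 13 of 20, against 70.7% of all shared peaks. The fragment number divided by the genome-wide background of its library (1.19 untreated, 1.03 adriamycin) was higher at 17 of 20, with a median ratio of 1.40 and a range of 0.718 at St6galnac1 to 1.96 at St3gal2. Over all shared peaks 81.2% were higher and the median ratio was 1.32. The counting intervals of the 2 fragment numbers overlapped at 20 of 20 sites.

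**Figure D4:**
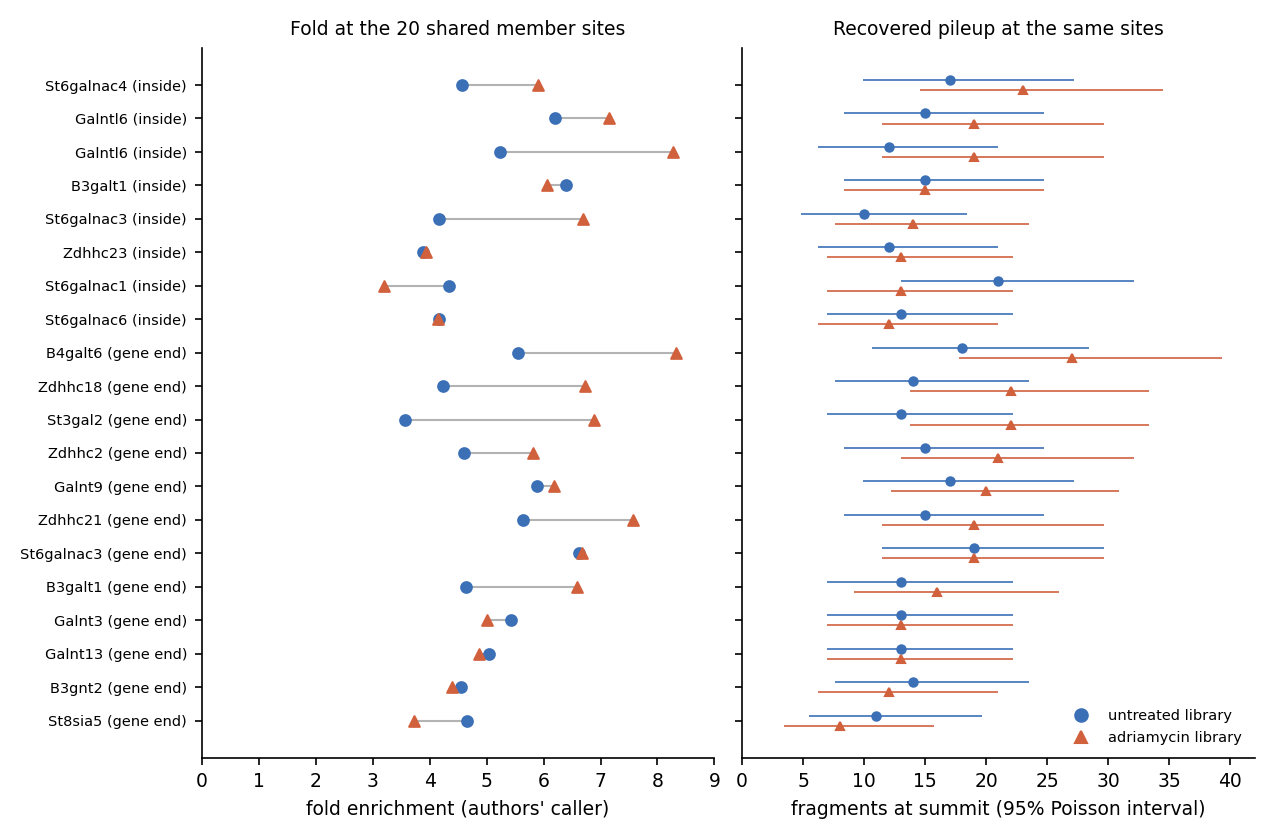
The 20 sites called in both libraries, with the authors' fold on the left and the recovered number of fragments at the summit on the right, with 95% Poisson intervals. Intervals of the 2 libraries overlap at every site, and the adriamycin fold is the higher one at 13 of 20.

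CpG content was compared between promoters with and without a peak near the start. The 24 with a summit within 1000 bp of the annotated start in either list held a median of 26 CpG per 300 bases (range 4 to 52), and the 50 without one a median of 22 (0 to 52). Over all 17492 genes with a promoter entry the medians were 25 and 10. By these medians the gap between promoters with and without a peak was narrower in these families than over all genes. The difference lay in promoters without a peak, 22 against 10, while those with one had 26 against 25. All 74 member promoters held a median of 23 CpG, against 13 over all 17492. A weaker relation of peaks to CpG in these families is not read from this. The 8 members called at the start in both lists held a median of 32 CpG and at least 20, and the 16 called after adriamycin only a median of 22.5. The same split over all genes is not given here, so nothing about these families is read from it. Median GC content was 69.7% with a peak and 61.2% without, against 65.8% and 54.3% over all genes. Among the 33 members with 24 or more CpG, 15 had a start peak after adriamycin and 7 untreated, 45.5% and 21.2%, against 32.4% and 11.8% of all genes with as many. Among the 19 with 18 to 23 CpG, 5 and 1 had one, 26.3% and 5.26%, against 17.3% and 5.52%.

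**Figure D5:**
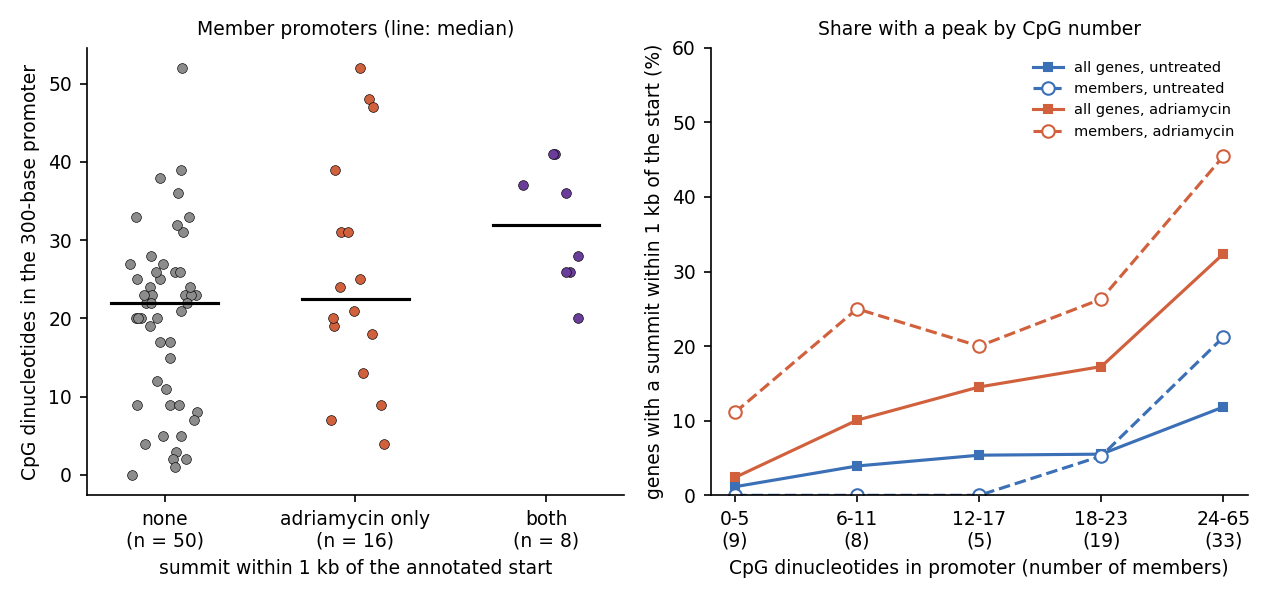
Left, CpG dinucleotides in the 300-base promoter of 74 members by whether a summit lies within 1 kb of the annotated start, with medians of 22, 22.5 and 32 as lines. Right, share of genes (%) with such a summit by CpG number, for all genes and for members, where bins of members hold 5 to 33 genes and the lower bins are thin.

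Short promoter motifs were searched on both strands of the same windows. The GC box (GGGCGG), bound by Sp factors, was present in 17 of 24 promoters with a peak (70.8%) and in 34 of 50 without (68.0%). Over all genes it was in 71.9% of promoters with a peak, 41.4% of those without and 46.3% of all. A CCAAT box (CCAAT) was present in 7 of 24 and 18 of 50, against 39.2% of all. The ETS core (CCGGAAG) was in 2 and 7, against 11.9%, and the cAMP response element (TGACGTCA) in 1 and 2, against 2.33%. Matches of different motifs may share bases, and a match is only a run of letters.

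Other genes of the same pathways, listed by function, were counted the same way. Gene-end peaks lay at 7 (10.3%) of 68 further glycosylation genes untreated and at 18 (26.5%) after adriamycin, against 5.78% and 16.0% of all genes. Called in both were B3glct (folds 5.98 and 5.41), Mgat4a (5.00 and 5.70), Mgat4b (6.03 and 5.68) and Rfng (3.35 and 4.71). These encode a glucosyltransferase of O-fucose glycans, 2 branching enzymes of N-glycans and a Fringe modifier of Notch. Mgat4b had a further adriamycin peak at its other end, 50225237 to 50225818 on chromosome 11, with a fold of 5.37 and no untreated call. Golgi mannosidase genes Man1a2, Man1c1, Man2a1 and Man2a2 were called after adriamycin only, with folds of 4.15 to 5.18, while Man1a had no gene-end peak. Also called after adriamycin only were B3galnt1, B3galnt2, B4galnt1, C1galt1, Fut9, Mgat2, Mgat3, Mgat5b, Nus1 and Rpn2. Dpm1, Poglut1 and Tusc3 were called in the untreated list only. Of 14 genes for depalmitoylases, partners of Zdhhc enzymes and other acyltransferases, 2 (14.3%) and 5 (35.7%) had a gene-end peak. All 3 Abhd17 depalmitoylase genes were called after adriamycin, Abhd17c in both lists with folds of 5.09 and 7.87 and 16 and 27 fragments, and so was the thioesterase gene Lypla1 (4.31). Hhat, which palmitoylates Hedgehog proteins, was called in both (4.84 and 5.48). Lypla2, Lyplal1, Ppt1, Ppt2, Abhd10, Golga7, Golga7b, Selenok and Porcn had no gene-end peak in either list.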

How the data were processed

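DPPA2 ChIP-seq of R1/E cells, 1 untreated and 1 adriamycin library, was used as 1 peak list per library. Per the submitters' processing notes, the tools were MACS3 3.0.0b1, Bowtie2 2.5.1, deepTools 3.5.1, FastQC 0.12.1 and SAMtools, and the build was mm10. Commands and filters are not given there, and whether an input control was used is not given in any source used here. In the deposited lists each peak has a fold (ratio of summit to local background), a −log10 p, a −log10 q, a score and a summit offset in bp, as the authors deposited them. The deposited score was not used in any result.

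Only peaks of the assembled chromosomes entered (7043 of 7169 and 16229 of 16371). Fragments at a summit were recovered as the whole number giving both fold and −log10 p (pseudocount 1, tolerance 0.001), for 99.9% of peaks in each list. On data simulated with the same formula, the recovery returned 500 of 500 fragment numbers drawn. That checks the arithmetic only, and cannot show that the authors' caller used this formula. The numbers drawn did not span the full range in the lists. The lists give no read totals, so depth was not known directly. The lowest background recovered was taken as genome-wide, and it was 1.19 fragments untreated and 1.03 after adriamycin. The median summit held 14 fragments in both lists, which does not show equal depth.

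Genes and promoters came from RefSeq tables of GRCm38.p6. Members, gene lists and named genes were chosen with earlier results of these data known: every member with a gene-end peak is named, with full values for those in both lists, in the untreated list only and the 10 highest folds in the adriamycin list only. Inside genes, sites called in both lists and the members with the most adriamycin peaks are named. Alternatives were stricter q and fold limits, equal list lengths, other windows and other overlaps. No test between groups was possible with 1 library each. Tools were Python 3.11.15 with pandas 2.3.3, numpy 2.4.6, scipy 1.17.1 and matplotlib 3.10.9.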

Additional observations from a re-analysis of the deposited data

How the results depend on the processing

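Counts depended on the peak threshold and on list length. Genes with a gene-end peak, 13 untreated, 32 after adriamycin and 12 in both, became 6, 17 and 4 with a q of at most 1e-05, and 7, 21 and 6 with a fold of at least 5. Genes with a peak at an end or inside, 19 and 47, became 8 and 23, and 9 and 27. Shared peaks, 20 in each list, became 6 and 8 under these limits. With lists of equal length the adriamycin counts fell to 16 genes at an end and 19 at an end or inside, against 13 and 19 untreated. Shared peaks fell to 13 in each list. Shares of all genes under these settings are not given here, so the counts cannot be set against them. Counting only gene starts with a known strand gave 8 untreated genes, by construction over the 74 genes with a promoter entry. Windows of 500 and 2500 bp, stricter overlap, peaks over the gene body and start peaks within 500 bp moved counts by less than 1.5 times. No paired analysis was possible because each group had 1 library. Summits of these genes held 10 to 22 fragments untreated and 6 to 39 after adriamycin, so counting intervals of single sites are wide, and a gene without a call in 1 list may lie just under its threshold.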
